A study of Caenorhabditis elegans with 12 samples.

Results

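The mRNA of sorted cells of the PSG, the proximal somatic gonad, was compared between day 7 (D7) and day 1 (D1) of adulthood in *daf-2(rf)* animals. This comparison uses 6 of the 12 libraries of the series, 3 from each day. Of 46687 genes listed, 7337 had over 10 reads in every replicate of D1, of D7 or of both and were tested. All 6 libraries came from untreated hermaphrodite populations with the reduction-of-function allele *e1370* of *daf-2* and a single-copy transgene in which the *fos-1a* promoter drives GFP. Many animals were pooled for each dissociation, and GFP+ cells were sorted. D7 animals had been moved daily and filtered away from their progeny. The other 6 libraries came from *daf-16(0); daf-2(rf)* animals, which carry the same transgene and *daf-2* allele together with the null allele *mu86* of *daf-16*. They are used only where the effect of age is set against that in the double mutant. Reads on *daf-16* came to 13.3 to 43.4 CPM in the *daf-2(rf)* libraries and to 4.94 to 18.5 CPM in those of the double mutant.

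DAF-2 is the insulin/IGF-like receptor of *Caenorhabditis elegans*. Lowering its activity releases the FOXO transcription factor DAF-16, which activates genes for stress resistance, and such animals live long and keep germline progenitors longer than wild type. The PSG holds the spermatheca and uterus, contractile and secretory tissues through which oocytes pass during the reproductive days. Unmated hermaphrodites exhaust their sperm early in adulthood, and the paper places the end of their reproduction between D1 and D7. When reproduction ended in these *daf-2(rf)* animals was not measured here. The question here is which mRNAs of these cells differ between D1 and D7 while DAF-16 is active.

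Between 7912696 and 16407304 reads per *daf-2(rf)* library fell on genes, and levels are given as CPM, read counts scaled to the depth of each library, after TMM normalization. On this scale 1 read is worth 0.0250 to 0.119 CPM. CPM is not corrected for gene length, so levels are compared between libraries and not between genes. The first principal component held 54.5% of the variance and placed all D1 libraries on one side and all D7 libraries on the other. D7 replicate 1 stood apart from its group: its 10 most abundant genes took 64.0% of its reads, against 27.3% and 31.7% in D7 replicates 2 and 3 and 54% to 62.1% on D1. Its log2 CPM correlated with D1 libraries at 0.887 to 0.921 and with the other D7 libraries at 0.895 and 0.917 across genes. D7 replicates 2 and 3 correlated with each other at 0.909, so the correlations did not set replicate 1 apart. On D1, replicate 2 correlated with replicates 1 and 3 at 0.929 and 0.938, whereas replicates 1 and 3 correlated at 0.974. The 5 genes with the most reads (*D1054.11*, *D1054.10*, *act-4*, *Y62H9A.6* and *F55B11.2*) had log2 fold changes of -0.76 to -1.43 that did not pass the test, the lowest adjusted p being 0.357. Of 20 genes listed as PSG markers, 18 were tested. Among them, *nmy-1*, a non-muscle myosin of the spermatheca, was at 2068 to 10227 CPM, *fln-1*, its filamin, at 401 to 1139 CPM and *fos-1* at 168 to 448 CPM in the 6 libraries. The marker list summed to 5088 to 12524 CPM on D1 (median 11833) and 3069 to 7569 CPM on D7 (median 3317), ranges that overlap. The median log2 fold change of the 18 tested was -0.32, with 11 negative and 7 positive estimates.

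By edgeR's quasi-likelihood test, 16 genes differed between the days at an adjusted p under 0.05 and at least a doubling or halving, 0.218% of the genes tested. Of these, 5 rose (0.0681%) and 11 fell (0.15%). All 16 had no overlap between the D1 and D7 libraries, which held for 2079 genes in all (28.3%). The call is strict, since 51 more genes had adjusted p of 0.05 to 0.06. At an unadjusted p under 0.05, 863 genes were higher on D7 (11.8%) and 767 lower (10.5%). DESeq2's Wald test on the same genes called 291 higher (3.97%) and 360 lower (4.91%), with all 16 among them. Over all genes tested the median log2 fold change was 0.07. Without D7 replicate 1, edgeR called 231 genes, 2.70% of 8566 tested, and all 16 were among these, but without D1 replicate 2 edgeR called 0, with 1148 genes at an unadjusted p under 0.05. Without D1 replicate 1, D7 replicate 2 or D7 replicate 3 it called 7, 10 or 5 genes, and without D1 replicate 3 it called 15. *C54F6.15*, *bcmo-2* and *pho-11* stayed called in 5 of these 6 fits and *sod-5* in 3, its adjusted p reaching 0.109 without D1 replicate 2.

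The gene with the largest rise was *sod-5* (chromosome II, 4417683 to 4419131), a cytosolic Cu/Zn superoxide dismutase that is known as a DAF-16 target in *daf-2* mutants. Its level was 4.52, 1.35 and 0.0776 CPM in D1 replicates 1 to 3, or 38, 13 and 1 reads. On D7 it was 315, 186 and 300 CPM, or 3613, 7420 and 10646 reads. Every D7 library was thus far above every D1 library, and the group means differed 135-fold (log2 fold change 7.16, SE 1.0, edgeR adjusted p = 0.0260). In the double mutant, *sod-5* was between 0.258 and 1.61 CPM in all 6 libraries. Of the 16 called genes it was the only one whose effect of age differed between the genotypes by the interaction test (difference -7.10, SE 1.31, edgeR adjusted p = 0.0460).

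*bcmo-2*, whose product is related to beta-carotene oxygenases, was at 0.475, 0.312 and 0.155 CPM on D1 and at 12.63, 7.96 and 9.66 CPM on D7. On D1 this was 4, 3 and 2 reads. The D7 libraries lay close together and the means differed 32.1-fold (log2 fold change 5.08, SE 0.49, edgeR adjusted p = 0.00821). It lies on chromosome II from 3908489 to 3910837.

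*F08H9.4*, named *hsp-16.21* in the RefSeq annotation, encodes a small heat shock protein, one of the chaperones that hold unfolded proteins. It is on chromosome V from 14463588 to 14464374. The D1 libraries had 1.07, 0.312 and 0.776 CPM and the D7 libraries 83.8, 19.6 and 17.6 CPM. D7 replicate 1 was the highest, and the other D7 libraries were also above all of D1 (log2 fold change 5.82, SE 0.76, edgeR adjusted p = 0.0244).

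The remaining genes that rose, *C54F6.15* and *C54F6.6*, are neighbours on opposite strands of chromosome V, at 7522032 to 7522364 and 7523692 to 7525421, and their near ends lie 1328 bp apart. *C54F6.6* was at 1.66, 2.60 and 0.233 CPM on D1 and at 159, 56.0 and 39.8 CPM on D7 (log2 fold change 5.88, SE 0.84, edgeR adjusted p = 0.0261). *C54F6.15* was at 1.19, 0.208 and 0.155 CPM on D1 and at 49.0, 25.3 and 22.1 CPM on D7 (log2 fold change 6.09, SE 0.69, edgeR adjusted p = 0.0146). Both were highest in D7 replicate 1 and far above D1 in every D7 library.

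Among the genes that fell, the vitellogenins formed the largest group. Vitellogenins are yolk lipoproteins that the adult intestine makes and secretes for uptake by oocytes. Of 6 genes in the list 5 were tested, and 4 of them fell. *vit-2* (chromosome X, 5101032 to 5106173) was at 232, 372 and 198 CPM on D1 and at 20.9, 5.61 and 6.90 CPM on D7, a 24-fold lower mean (log2 fold change -4.58, SE 0.59, edgeR adjusted p = 0.0244). *vit-6* (chromosome IV, 8261145 to 8266463) was at 182, 217 and 167 CPM on D1 and at 12.7, 3.83 and 5.30 CPM on D7 (log2 fold change -4.69, SE 0.50, edgeR adjusted p = 0.0125). Among the D7 libraries, replicate 1 kept the most of both transcripts, still far below D1.

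*vit-5* (chromosome X, 3403471 to 3408605) went from 47.4, 68 and 42.1 CPM on D1 to 8.36, 3.46 and 2.79 CPM on D7 (log2 fold change -3.43, SE 0.46, edgeR adjusted p = 0.0244). *vit-3* (chromosome X, 3567397 to 3572549) had 319, 399 and 221 reads on D1 and 9, 0 and 8 reads on D7 (log2 fold change -6.98, SE 0.96, edgeR adjusted p = 0.0244). For *vit-4* the reads were 90, 214 and 198 on D1 and 16, 0 and 13 on D7, with an adjusted p of 0.0625 that did not pass. *vit-3*, *vit-4* and *vit-5* are near-identical copies, so the division of reads among them is uncertain. Outside the vitellogenins, the intestinal markers tested had estimates of both signs and none was called. Of all 13 intestinal genes tested, 9 had negative estimates and 4 positive ones. The median was -0.29, or -0.97 without D7 replicate 2. The uncalled members of highest CPM besides *vit-4* were *eps-8* and *spl-1*, with log2 fold changes of -0.29 and 0.39. *act-5*, the intestinal actin, had a log2 fold change of -0.28, *ifb-2*, an intestinal intermediate filament, of 1.09 and *asp-1*, an intestinal protease, of 0.42, none of which passed. The intestinal list summed to 464 to 762 CPM on D1 and 37.6 to 75.1 CPM on D7 (median 54.1). On D1 most of it was vitellogenin, at 440 to 721 CPM. On D7 the vitellogenins summed to 12.9 to 44.3 CPM, with a median of 15.8. In bulk samples fewer cells of a type and less RNA per cell cannot be told apart, and the part that intestinal RNA in the sort has in these values was not tested.

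**Figure D1:**
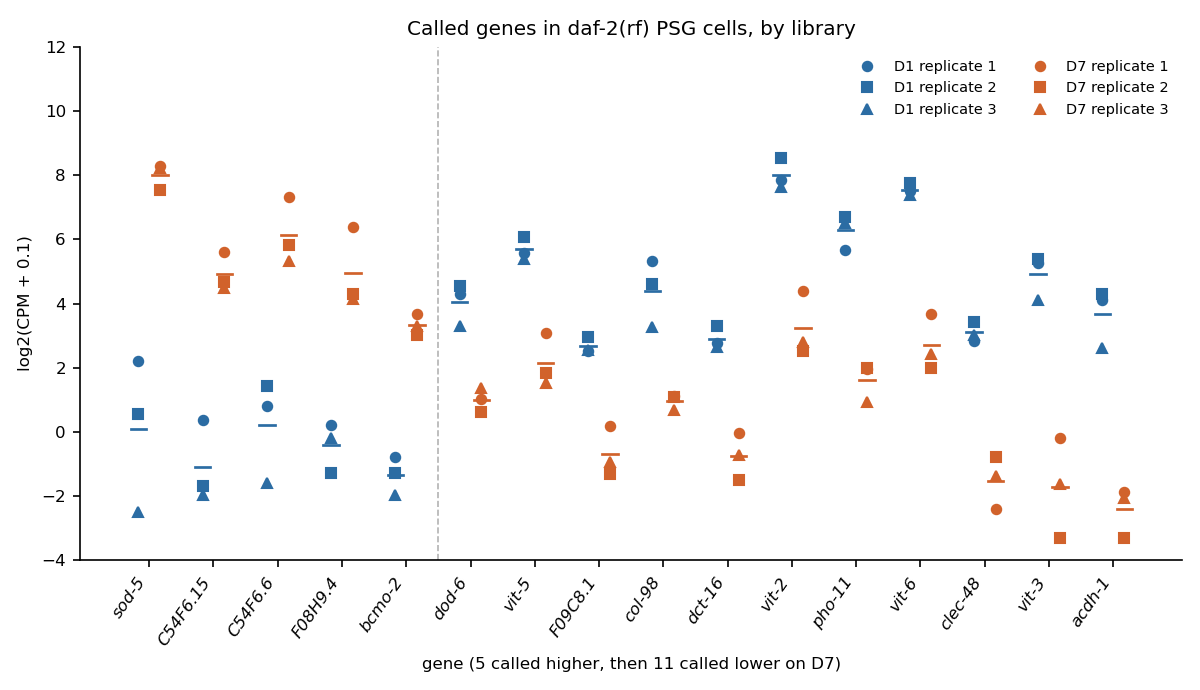
Level of the 16 called genes in each *daf-2(rf)* library, as log2(CPM + 0.1). Points are libraries, shaped by replicate, in blue for D1 and orange for D7, and bars are group means on this scale. The days do not overlap for any of the 16 genes, and *sod-5* shows the widest gap among the 5 that rose.

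The other 7 genes that fell were *acdh-1*, *pho-11*, *clec-48*, *col-98*, *dod-6*, *dct-16* and *F09C8.1*. *acdh-1*, an acyl-CoA dehydrogenase of propionate and branched-chain amino acid breakdown (chromosome I, 6497438 to 6499316), had 144, 186 and 78 reads on D1 and 2, 0 and 5 reads on D7. In CPM that was 17.1, 19.4 and 6.05 against 0.174, 0 and 0.141 (log2 fold change -7.22, SE 0.86, edgeR adjusted p = 0.0155). *pho-11* (chromosome II, 9931845 to 9934431), of the acid phosphatase family, was at 50.3, 103 and 90.9 CPM on D1 and at 3.74, 3.83 and 1.80 CPM on D7. Its mean was 26.1-fold lower on D7 (log2 fold change -4.67, SE 0.45, edgeR adjusted p = 0.00821), with the smallest relative error of the genes that fell. The gene's end overlaps that of *C05C10.3* on the other strand, and without strand such reads cannot be told apart. *C05C10.3* itself had a log2 fold change of 0.83.

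*clec-48* (chromosome V, 18158027 to 18159610), a C-type lectin, was at 7.01, 10.7 and 8.07 CPM on D1 and at 0.0871, 0.476 and 0.282 CPM on D7. That is 1, 19 and 10 reads on D7 (log2 fold change -4.69, SE 0.55, edgeR adjusted p = 0.0148). *col-98* (chromosome III, 13018935 to 13020231), a cuticle collagen, was at 39.7, 24.1 and 9.46 CPM on D1 and at 2.09, 2.00 and 1.49 CPM on D7 (log2 fold change -3.67, SE 0.52, edgeR adjusted p = 0.0261). The D1 libraries of *col-98* were spread widely and the D7 libraries were close together.

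*dod-6* and *dct-16* were both named in earlier studies of genes controlled by DAF-16. *dod-6* (chromosome III, 10197716 to 10198352) was at 19.5, 23.3 and 9.77 CPM on D1 and at 1.92, 1.43 and 2.48 CPM on D7 (log2 fold change -3.13, SE 0.43, edgeR adjusted p = 0.0244). *dct-16* (chromosome V, 20497922 to 20499073) was at 6.77, 9.68 and 6.13 CPM on D1 and at 0.871, 0.251 and 0.507 CPM on D7 (log2 fold change -3.85, SE 0.53, edgeR adjusted p = 0.0244). *F09C8.1* (chromosome X, 16159648 to 16163548) was at 5.59, 7.6 and 5.74 CPM on D1 and at 1.04, 0.301 and 0.423 CPM on D7 (log2 fold change -3.50, SE 0.54, edgeR adjusted p = 0.0436). In all 3 genes the lowest D1 library was above the highest D7 library.

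Around these calls, 43 lists of genes by process and 11 lists of tissue markers were described by counts and medians. No set test was run on them. Of the process lists 7 held a called gene, and 6 of the 16 called genes (*C54F6.15*, *C54F6.6*, *bcmo-2*, *pho-11*, *dct-16* and *F09C8.1*) were in no list. Another 33 process lists with at least 10 genes tested held none, with medians from -0.63 to 1.72. Members that are named below without a call were chosen after their values were seen, unless the fixed rule named them.

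**Figure D2:**
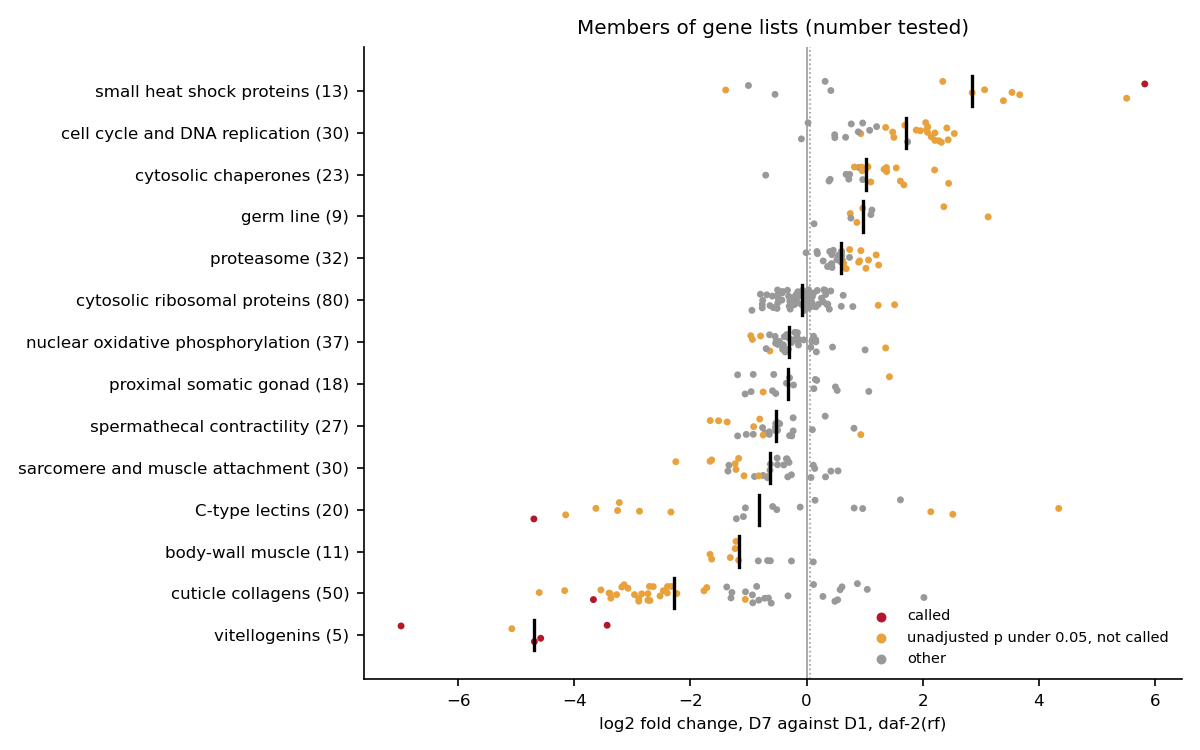
Log2 fold change, D7 against D1 in *daf-2(rf)*, of each tested member of 14 gene lists, with the number tested in brackets. Red marks called genes, orange an unadjusted p under 0.05, black bars the list medians, which run from 2.85 for the small heat shock proteins to -4.69 for the vitellogenins, and the dotted line the median of all genes tested.

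Nearly all listed cytosolic chaperones had positive estimates, though none passed edgeR's test. The cytosolic chaperones fold client proteins with ATP, among them the HSP70 and HSP90 systems and the CCT ring. All 23 listed genes were tested, 22 had positive estimates and the median log2 fold change was 1.02, against 0.07 for all genes. None was called by edgeR, 15 had an unadjusted p under 0.05 with higher D7 values (background 11.8%) and none with lower, and DESeq2 called 9 higher (background 3.97%). *daf-21*, the HSP90 gene, was at 819, 390 and 917 CPM on D1 and at 3177, 3196 and 4818 CPM on D7 (log2 fold change 2.45, SE 0.54, edgeR adjusted p = 0.0709). *hsp-1*, the constitutive HSP70, was at 582, 196 and 555 CPM on D1 and at 1035, 1614 and 1450 CPM on D7 (log2 fold change 1.68, edgeR adjusted p = 0.120). *hsp-70*, the heat-inducible HSP70, had a log2 fold change of 2.205 and *hsp-110*, its exchange factor, of 1.38. Of the CCT ring, *cct-2*, *cct-4*, *cct-6* and *cct-7* had log2 fold changes of 1.33, 1.54, 1.37 and 1.62 and were called by DESeq2 but not by edgeR. In these 8 genes, as in 16 of the 23 listed, the D1 and D7 libraries did not overlap, against 28.3% of all genes tested. Summed over the list, D1 libraries held 2079 to 3079 CPM and D7 libraries 8113 to 12425 CPM. Leaving out single libraries kept the median between 0.83 and 1.24, with 12 to 14 members at an unadjusted p under 0.05. Without D7 replicate 1, edgeR called 3 of the chaperones (background 2.70% in either direction). In the double mutant the same list had a median of -0.32.

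The small heat shock proteins were more divided. Of 16 listed, 13 were tested, 10 had positive estimates, and the median was 2.85. Without D7 replicate 3 the median was 1.59. Without D7 replicate 1 edgeR called 6 members of 15 tested, all higher on D7 (background 2.70% in either direction). *F08H9.4* rose, and 7 others with higher D7 values had an unadjusted p under 0.05 (background 11.8%) and a DESeq2 call (background 3.97%). *hsp-16.41* was at 173, 92.4 and 84.1 CPM on D1 and at 501, 514 and 1423 CPM on D7 (log2 fold change 2.85, SE 0.56, edgeR adjusted p = 0.0620). *hsp-16.2* was at 42.2, 20.7 and 15.6 CPM on D1 and at 111.7, 151 and 615 CPM on D7 (log2 fold change 3.54, SE 0.72, edgeR adjusted p = 0.0628). In both, D7 replicate 3 was the highest by far and all D7 libraries were above D1. The *hsp-16* genes lie as near-identical copies in inverted pairs, so reads may be split among them. *hsp-43* had lower D7 values, with 552, 551 and 556 CPM on D1 and 246, 135 and 235 CPM on D7 (log2 fold change -1.39, SE 0.37, edgeR adjusted p = 0.0967). *hsp-25* likewise was at 488 to 572 CPM on D1 and at 140 to 438 CPM on D7 (log2 fold change -1.0, edgeR adjusted p = 0.241). The sum of the list was therefore like D1 in D7 replicates 1 and 2 and high in D7 replicate 3 (1274 to 1309 CPM on D1, 1078 to 3765 CPM on D7).

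The proteasome, which degrades ubiquitylated proteins, had 31 positive estimates among 32 tested genes, with a median of 0.59. There were 10 members with an unadjusted p under 0.05, all with higher D7 values (background 11.8%), and 6 without D1 replicate 2. No member was called by edgeR, and DESeq2 called 3 (background 3.97%). These were *rpn-3*, *pas-6* and *rpn-11*, with log2 fold changes of 1.07, 1.20 and 1.24. The summed level was 586 to 854 CPM on D1 and 1025 to 1289 CPM on D7. The unfolded protein response of the endoplasmic reticulum did not share this direction (18 tested, median -0.43). Its single DESeq2 call was *pdi-2*, a protein disulfide isomerase, lower on D7 (4308, 7473 and 5093 CPM on D1 against 2573, 614 and 1429 CPM on D7, log2 fold change -1.85, edgeR adjusted p = 0.146). The list for the mitochondrial unfolded protein response had 11 genes tested and a median of 0.11. None was called by edgeR, but 3 had higher D7 values at an unadjusted p under 0.05 (background 11.8%), as many as when any single library was left out, and were called by DESeq2 (background 3.97%). These were *hsp-6* and *hsp-60*, mitochondrial chaperones, and *timm-23*, of the protein import channel, with log2 fold changes of 1.24, 1.62 and 1.36 and edgeR adjusted p of 0.0878, 0.0809 and 0.0860.

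Listed DAF-16 targets pointed in both directions. Of 28 genes that DAF-16 activates in whole worms, 17 were tested, 9 with positive and 8 with negative estimates, with *sod-5* rising and *dod-6* falling. *hsp-12.6* (also in the small heat shock list), *ctl-1* (a catalase), *lys-7* (a lysozyme) and *nnt-1* had positive estimates with DESeq2 calls. *sams-1* and *aqp-1* (an aquaporin) had negative estimates with DESeq2 calls. With *sod-5* and *dod-6*, DESeq2 called 5 of the 17 higher (background 3.97%) and 3 lower (background 4.91%). *sod-3*, a mitochondrial superoxide dismutase often used as a DAF-16 reporter, was at 12.2, 10.1 and 3.41 CPM on D1 and at 24.5, 14.6 and 2.25 CPM on D7. Its days overlapped (log2 fold change 0.71, SE 0.74, edgeR adjusted p = 0.594). *lea-1*, *hil-1* and *tps-1*, which had the highest CPM among the members of that list that were not called, had log2 fold changes of 0.999, -0.08 and -0.21, and none passed. Of the antioxidant enzymes 19 of 28 were tested (median 0.49). *sod-5* was the member called by edgeR (background 0.0681%), and DESeq2 added *ctl-1* and *ctl-3* (background 3.97%). The abundant *prdx-2*, a peroxiredoxin, and *gpx-5* had log2 fold changes of -0.10 and -0.02.

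Genes of the cell cycle and DNA replication also had higher D7 estimates. Of 36 listed, 30 were tested and 29 of these had positive estimates, with a median of 1.72. None was called by edgeR, 19 had an unadjusted p under 0.05 with higher D7 values (background 11.8%) and DESeq2 called 13 higher (background 3.97%). *mcm-3*, a subunit of the replicative helicase, was at 2.97, 0.937 and 1.63 CPM on D1 and at 10.1, 14.9 and 3.75 CPM on D7 (log2 fold change 2.44, SE 0.60, edgeR adjusted p = 0.0840). *top-2*, a topoisomerase, was at 9.86, 6.77 and 10.4 CPM on D1 and at 34.5, 52.2 and 14.9 CPM on D7 (log2 fold change 1.96, SE 0.45, edgeR adjusted p = 0.0787). *plk-1*, a mitotic kinase, was at 3.92, 0.937 and 7.6 CPM on D1 and at 25.3, 38.7 and 6.96 CPM on D7, so that D7 replicate 3 lay within D1. Over the list, D7 replicate 3 summed to 118 CPM, close to the highest D1 library at 118 CPM, and the other D7 libraries to 263 and 423 CPM. Leaving out single libraries gave medians of 1.20 to 2.03, with 9 to 21 members at an unadjusted p under 0.05, the 9 being without D7 replicate 2.

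Markers of the germ line also had higher D7 estimates. All 9 tested markers of 20 listed had positive estimates (median 0.97), 5 of them at an unadjusted p under 0.05 (background 11.8%), and 2 without D1 replicate 3, 3 without D1 replicate 2 and 3 without D7 replicate 1. Their sum was 49.5 to 72.3 CPM on D1 and 103 to 136 CPM on D7. *mex-3*, an RNA-binding protein of germ cells and early embryos, was at 2.14, 0.833 and 1.63 CPM on D1 and at 6.44, 29.1 and 2.70 CPM on D7 (log2 fold change 3.13, edgeR adjusted p = 0.0994). *cgh-1*, a germline RNA helicase, was at 27.1 to 33.3 CPM on D1 and at 44.2 to 54.7 CPM on D7. Of 20 oocyte and maternal genes 11 were tested, 8 with positive estimates and a median of 0.57, which was -0.17 without D7 replicate 1. Of these *mex-1* and *lin-41*, regulators of maternal mRNAs, were higher on D7 at an unadjusted p under 0.05 (background 11.8%) and by DESeq2 (background 3.97%). None was lower by either test. The sum of the oocyte list overlapped between the days (495 to 1414 CPM on D1 and 180 to 1029 CPM on D7), most of it from *perm-2* and *perm-4*, eggshell proteins with log2 fold changes of -1.09 and -0.96. *ssp-37*, a sperm protein, was at 1201, 1011 and 1351 CPM on D1 and at 1386, 73.8 and 134 CPM on D7, also overlapping. Of 55 sperm genes listed only 2 were tested, with 0 at an unadjusted p under 0.05. Without D1 replicate 2, 25 passed the read filter, with a median of -3.78 and 20 lower on D7 at an unadjusted p under 0.05. The filter admits genes through the day on which they are high, so the sperm list depends on that library. Whether germ cells in the sort have a part in the cell cycle values was not tested.

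**Figure D3:**
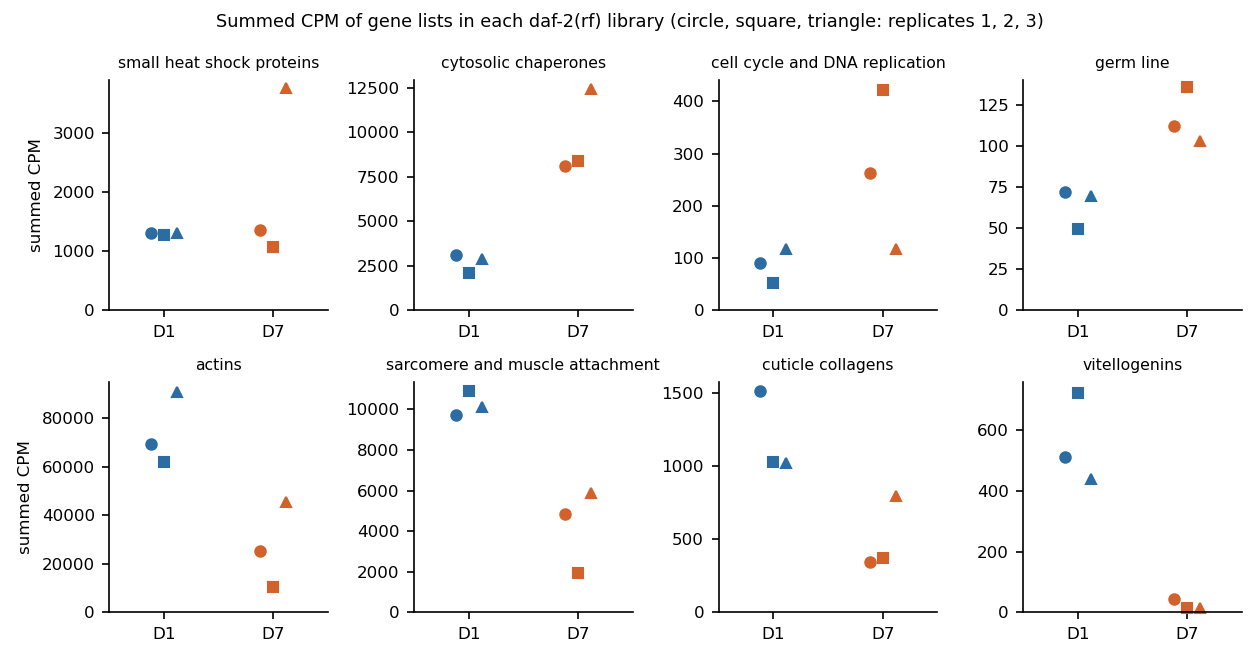
Summed CPM of 8 gene lists in each *daf-2(rf)* library, with D1 in blue, D7 in orange and the shape giving the replicate. The D1 and D7 libraries are apart for the cytosolic chaperones (2079 to 3079 against 8113 to 12425 CPM) and the vitellogenins (440 to 721 against 12.9 to 44.3 CPM), whereas D7 replicate 3 lies at the D1 level for the cell cycle genes.

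Most cuticle collagens had lower D7 values. These proteins form the exoskeleton and are made by the hypodermis. Of 179 listed, 50 were tested, with a median of -2.28 and negative estimates for 41. One was *col-98*, which fell. In all, 29 had an unadjusted p under 0.05 and lower D7 values (background 10.5%), none with higher values, and DESeq2 called 24 lower (background 4.91%). *col-80* was at 74.4, 10.9 and 26.2 CPM on D1 and at 2.26, 3.68 and 3.13 CPM on D7 (log2 fold change -3.54, SE 0.64, edgeR adjusted p = 0.0509). *col-124* was at 93.6, 9.48 and 32.4 CPM on D1 and at 3.66, 6.46 and 7.24 CPM on D7 (log2 fold change -2.89, edgeR adjusted p = 0.0840). The D1 libraries of these genes were far apart, with replicate 1 high and replicate 2 low. The more abundant *col-135* overlapped between the days (331 to 494 CPM on D1 and 49.5 to 545 CPM on D7), and *col-153* was at 101 to 117 CPM on D1 and 37.2 to 73.2 CPM on D7 (edgeR adjusted p = 0.123). *dpy-18*, a collagen prolyl hydroxylase, had a log2 fold change of -0.93 (edgeR adjusted p = 0.227). The hypodermal markers were low, with a sum of 8.77 to 25.4 CPM on D1 and 5.66 to 7.84 CPM on D7, and their part in the collagen values was not tested. Leaving out single libraries, the collagen median ranged from -2.61 to -1.37. In the double mutant it was -2.91.

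Genes of contraction were lower on D7 in estimate. Spermathecal cells squeeze oocytes forward through actomyosin bundles that calcium release triggers. Of 27 genes in the contractility list, all tested, 23 had negative estimates (median -0.53), 6 with lower D7 values at an unadjusted p under 0.05 (background 10.5%) and 1 with higher. Leaving out single libraries gave 5 to 10 lower, the 10 being without D7 replicate 3. *itr-1*, the IP3 receptor that releases calcium, was at 92.7, 65.6 and 95.9 CPM on D1 and at 29.0, 23.3 and 34 CPM on D7 (log2 fold change -1.51, SE 0.30, edgeR adjusted p = 0.0622). *mel-11*, the myosin phosphatase regulatory subunit, was at 255 to 298 CPM on D1 and at 84.8 to 127 CPM on D7 (log2 fold change -1.37, SE 0.32, edgeR adjusted p = 0.0817). *zyx-1*, zyxin, was at 2923 to 3362 CPM on D1 and at 447 to 1380 CPM on D7 (log2 fold change -1.66, edgeR adjusted p = 0.130). These 3 genes were called by DESeq2 (background 4.91%), and their days did not overlap. That held for 9 of the 27 members with lower D7 values and 1 with higher, against 28.3% of all genes in either direction. *act-4*, the most abundant actin, was at 67886, 61059 and 88956 CPM on D1 and at 24405, 9697 and 44206 CPM on D7. Its estimate did not pass (log2 fold change -1.43, SE 0.88, edgeR adjusted p = 0.362).

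The sarcomere list had 30 of 33 genes tested and a median of -0.63, with 9 members at an unadjusted p under 0.05, all lower on D7 (background 10.5%). Only 3 were left without D1 replicate 2, D1 replicate 3 or D7 replicate 2, and 5 without D7 replicate 3. *pat-10*, troponin C, was at 133, 167 and 173 CPM on D1 and at 111, 39.6 and 69.9 CPM on D7 (edgeR adjusted p = 0.162). *ttn-1*, a titin-like kinase, had a log2 fold change of -2.25 (edgeR adjusted p = 0.0780). Of 11 tested body-wall muscle markers 10 had negative estimates, 6 with an unadjusted p under 0.05 (1 without D1 replicate 2, 2 without D7 replicate 3, and 3 without D1 replicate 3 or D7 replicate 2), and their sum was 152 to 318 CPM on D1 and 97.5 to 149 CPM on D7. *myo-3*, a body-wall muscle myosin, had a log2 fold change of 0.12. The part of muscle RNA in the sarcomere values was not tested.

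Secreted lectins and lysosomal proteases had more negative than positive estimates. Of 254 C-type lectins 20 were tested, 13 with negative estimates (median -0.82, and -0.24 without D7 replicate 3 or -0.45 without D7 replicate 2). At an unadjusted p under 0.05, 7 had lower D7 values (background 10.5%) and 3 higher ones (background 11.8%). The most abundant were *clec-222*, at 4930, 15681 and 11228 CPM on D1 and at 2315, 233 and 761 CPM on D7 (log2 fold change -3.25, SE 0.91, edgeR adjusted p = 0.104), and its neighbour *clec-223*, at 1161, 1050 and 1597 CPM on D1 and at 235, 51.7 and 113 CPM on D7 (log2 fold change -3.22, SE 0.59, edgeR adjusted p = 0.0509). *clec-190* had a positive estimate (log2 fold change 1.62, edgeR adjusted p = 0.242). Of 14 cathepsins and aspartyl proteases 9 had negative estimates, and *cpr-6*, a cathepsin B, was at 43.6, 82.8 and 49.9 CPM on D1 and at 4.79, 13.8 and 4.48 CPM on D7 (log2 fold change -2.87, SE 0.51, edgeR adjusted p = 0.0509). In the fatty acid list, 42 of 86 genes were tested. Besides *acdh-1*, *acs-2*, a mitochondrial acyl-CoA synthetase induced by fasting, was at 46.2, 14.8 and 19.8 CPM on D1 and at 3.31, 0.476 and 0.535 CPM on D7 (log2 fold change -4.36, SE 0.80, edgeR adjusted p = 0.0539). The abundant members *acs-4*, *acs-13* and *fat-1* had log2 fold changes of -0.25, 0.00 and -0.01.

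Cytosolic ribosomal proteins had estimates around 0 in *daf-2(rf)*. Of 82, 80 were tested, the median was -0.08, no member was called by edgeR and 2 had an unadjusted p under 0.05. The sum was 18710 to 26540 CPM on D1 and 21708 to 24413 CPM on D7. In the double mutant the same 80 genes had a median of -2.85, but the interaction test described below passed for only 1 of them. The nuclear genes of oxidative phosphorylation had a median of -0.30 in *daf-2(rf)* (37 tested, 28 negative) and of -1.56 in the double mutant, with 0 passing the interaction test. Nuclear hormone receptors, the largest list tested, had 51 positive and 53 negative estimates.

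The genes on which the study centred gave the following values. *dos-3*, a Notch ligand gene of the DOS-motif family, was at 0.832, 1.67 and 0.388 CPM on D1 (7, 16 and 5 reads) and at 10.8, 15.6 and 4.37 CPM on D7 (124, 624 and 155 reads). All D7 libraries were above all D1 libraries and the means differed 10.7-fold (log2 fold change 3.48, SE 0.65), but the edgeR adjusted p of 0.0546 did not pass, and DESeq2 called it (adjusted p = 1.9e-05). In the double mutant it had 0 CPM in each D1 library and 0.309 to 0.814 CPM on D7. *lag-2*, a canonical Notch ligand, had 0 to 3 reads in each D1 library and was at 0.348, 2.81 and 0.338 CPM on D7, below the read filter. *glp-1*, the Notch receptor of germline stem cells, was at 82.3 to 207 CPM on D1 and 34.4 to 119 CPM on D7 (edgeR adjusted p = 0.357). Its targets *sygl-1* and *lst-1* had log2 fold changes of 1.11 and 0.13 and did not pass. *daf-2* (18.1 to 22.8 CPM on D1 and 26.3 to 28.6 CPM on D7, log2 fold change 0.45), *daf-16* (35.0 to 41.7 and 13.3 to 43.4 CPM, log2 fold change -0.42) and *fos-1*, whose promoter marked the cells (log2 fold change -0.59), did not pass either. Of 16 tested Notch pathway genes none was called, against 0.218% of all genes, so that a count of 0 in so short a list says nothing of the pathway. Without D7 replicate 1, 1 of 18 tested was called higher and 2 lower, against 2.70% of all genes called in either direction in that fit.

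Single genes close to the threshold filled the list of genes higher on D7. *byn-1* was at 16.8, 15.4 and 18.9 CPM on D1 and at 44.8, 75.2 and 65.2 CPM on D7 (log2 fold change 1.91, SE 0.31). *nhr-17*, a nuclear hormone receptor, was at 8.08, 9.37 and 7.76 CPM on D1 and at 27.95, 52.6 and 25.7 CPM on D7 (log2 fold change 2.13, SE 0.36). *dohh-1*, deoxyhypusine hydroxylase, which completes the hypusine residue of eIF5A, was at 7.39 to 13.1 CPM on D1 and 33.0 to 54.95 CPM on D7 (log2 fold change 2.04, SE 0.34). *B0024.4*, *C24H12.4*, *F09F7.7* and *B0238.12* had log2 fold changes of 4.74, 2.42, 1.66 and 3.26. *F40F4.6* was lower on D7 (log2 fold change -3.07, SE 0.49). None of these 8 was called by edgeR, since each had an adjusted p of 0.0509. The days did not overlap in any of them, but this was a condition of their choice and held for 28.3% of all genes tested.

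The effect of age was then set beside that in *daf-16(0); daf-2(rf)*, whose 6 libraries are separate. Its D1 replicates 1 to 3 had 4396, 7617 and 6246 genes over 10 reads, against 6934 to 7696 in the D1 libraries of *daf-2(rf)*. In D1 replicate 1 of the double mutant, rRNA took 3.30% of the reads. Double mutant values on D1 are limited by this. In the double mutant 44 of 7541 genes were called (0.583%), 15 higher and 29 lower on D7. Across the 6782 genes tested in both genotypes, the log2 fold changes had a Pearson r of 0.187 and a Spearman rho of 0.136, and 54.6% had the same sign. These are descriptions across genes, which are not independent. Of the 16 genes called in *daf-2(rf)*, 11 were tested in the double mutant and all 11 had the same sign there, but none was called in both. In the double mutant, *vit-2* was at 695, 163 and 886 CPM on D1 and at 472, 31.2 and 165 CPM on D7 (log2 fold change -1.39). *vit-6* was at 219, 79.9 and 264 CPM on D1 and at 291, 13.9 and 87 CPM on D7 (log2 fold change -0.52). For both, the days overlapped there. The difference of the age effect did not pass for *vit-2* (3.21, edgeR adjusted p = 0.133) or *vit-6* (4.19, edgeR adjusted p = 0.0792).

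The interaction of genotype and age, tested on all 12 libraries, passed for 57 of 8096 genes (0.704%). For 24 of these the effect of age was more negative in the double mutant, and all 24 had positive estimates in *daf-2(rf)*. For the other 33 it was more positive in the double mutant, and 31 of the 32 tested in *daf-2(rf)* had negative estimates there. Of 52 genes tested in both genotypes, 51 had opposite estimates. All were chosen by the difference between the genotypes, which favours opposite signs, so these sign counts are no separate result. Besides *sod-5*, *hsp-16.2* was at 111.7 to 615 CPM on D7 and 15.6 to 42.2 CPM on D1 in *daf-2(rf)*, but at 129.3 to 210 CPM on D7 and 337 to 971 CPM on D1 in the double mutant (difference -5.23, SE 0.95, edgeR adjusted p = 0.0460). *daf-21* had log2 fold changes of 2.45 and -0.79 (difference -3.16, edgeR adjusted p = 0.0468), and *prmt-1*, the main arginine methyltransferase, of 3.27 and -1.34 (difference -4.52, edgeR adjusted p = 0.0460). *byn-1* and *C24H12.4* had differences of -2.22 and -2.65.

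In the other direction, *clec-223* was at 51.7 to 235 CPM on D7 and 1050 to 1597 CPM on D1 in *daf-2(rf)*, but at 505 to 1555 CPM on D7 and 202 to 800 CPM on D1 in the double mutant (difference 4.6, SE 0.94, edgeR adjusted p = 0.0462). *itr-1* had log2 fold changes of -1.51 in *daf-2(rf)* and 1.66 in the double mutant (difference 3.22, edgeR adjusted p = 0.0462). *magu-4*, *xnp-1*, a chromatin remodeller, and *eea-1*, an early endosome tether, had differences of 3.66, 3.36 and 5.43. The interaction calls are sensitive to single libraries: leaving out any D1 library or D7 replicate 3 of *daf-2(rf)*, or D1 replicate 1, D7 replicate 1 or D7 replicate 3 of the double mutant, left 0 genes at an edgeR adjusted p under 0.05, with 1401 to 2017 at an unadjusted p under 0.05. Without D7 replicate 2 of *daf-2(rf)* 1 gene passed, and without D7 replicate 2 or D1 replicate 2 of the double mutant 20 or 130 passed. The genes named here beyond *sod-5*, *hsp-16.2*, *byn-1*, *C24H12.4* and *clec-223* were chosen after their values were seen.

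**Figure D4:**
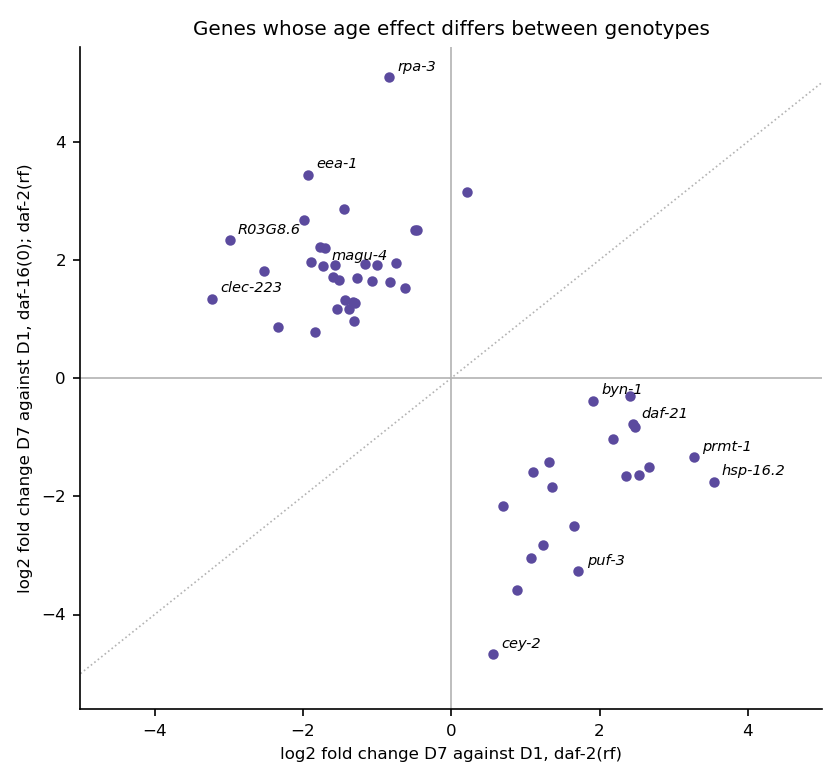
Log2 fold change of D7 against D1 in *daf-2(rf)* (horizontal) and in *daf-16(0); daf-2(rf)* (vertical) for the 52 genes that passed the interaction test and were tested in both genotypes. The dotted line marks equal effects, and 51 of the 52 genes lie in the quadrants of opposite estimates. The genes shown were chosen by this difference.

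**Figure D5:**
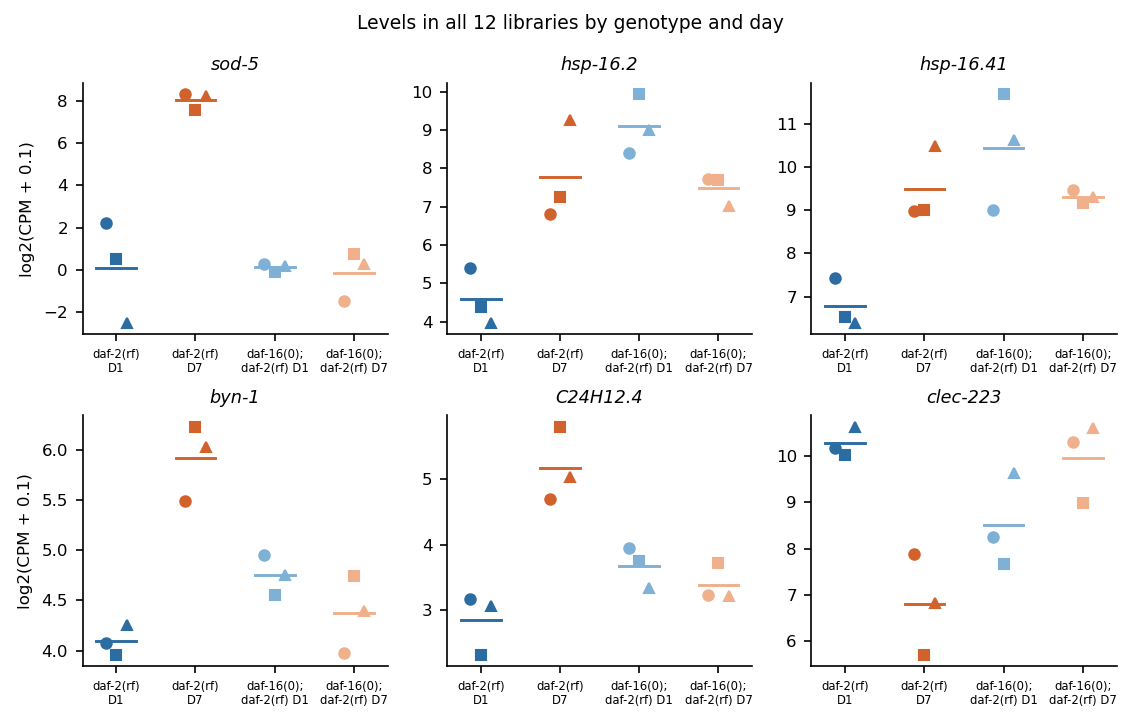
Level of 6 genes in all 12 libraries as log2(CPM + 0.1), by genotype and day, with shapes for replicates 1 to 3 and bars for group means. *sod-5* is high in the 3 D7 libraries of *daf-2(rf)* alone, at 186 to 315 CPM. *clec-223* has its lowest group mean there, with libraries at 51.7 to 235 CPM. That range overlaps the double mutant on D1, at 202 to 800 CPM.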

How the data were processed

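The authors deposited raw read counts per gene and FPKM. Per the labels and methods, amplified polyA cDNA was sequenced in pairs, aligned to WBcel235 with HISAT2 2.0.5 and counted with featureCounts 1.5.0-p3. Amplification without molecular identifiers means that reads are not independent molecules, and the kit does not mark strand. The FPKM the authors deposited entered 2 alternatives. Counts went into edgeR 4.0.16 (R 4.3.3; TMM, quasi-likelihood F test, Benjamini-Hochberg adjustment over all genes tested), with DESeq2 1.42.0 and limma 3.58.1 as alternatives. SE was approximated from the F statistic. Fits were tested on simulated counts. The thresholds of the call (adjusted p under 0.05, log2 fold change of 1 or more in size) follow the study, whose own test was DESeq2 where edgeR is the main test here. The study asks for over 10 reads in all replicates without saying of which groups, and here every replicate of at least 1 group compared had to pass. Named genes were the 12 per direction with the largest called change (free places went to the smallest p), members of lists with a call, genes the study names, called genes of smallest interaction p and the 5 most abundant. The 12 per direction were taken from protein-coding genes whose days did not overlap. Genes and lists were chosen with earlier results of these data known. The study calls its samples biological replicates.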

Additional observations from a re-analysis of the deposited data

Results flagged for a closer look

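Among the named genes, 5 had an effect of age that differed from that of the double mutant by edgeR's interaction test. The difference of log2 fold changes, double mutant minus *daf-2(rf)*, was -7.10 for *sod-5*, -5.23 for *hsp-16.2*, -2.65 for *C24H12.4*, -2.22 for *byn-1* and 4.6 for *clec-223*, with adjusted p of 0.0460 to 0.0462. In *daf-2(rf)* alone only *sod-5* of these 5 was called. Groups of 3 are too small for a search for single outlying libraries.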

How the results depend on the processing

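The count of 16 for *daf-2(rf)* depended on the tool and filter. DESeq2 called 651 genes, or 594 with no filter (added after the data were seen), and edgeR 863 with no filter on low counts, 53 with over 10 reads in every library and 63 with all 12 libraries in 1 fit. limma on log2(FPKM + 1) called 103 and on log2(FPKM + 0.1) 65. Of the 16, 15 were called with all 12 libraries in 1 fit and 7 with over 10 reads in every library, a filter that drops genes near 0 on 1 day, and all 16 under the other alternatives named so far. The other settings without a block gave 16 to 18 calls. For the double mutant, DESeq2 called 1353 and edgeR with no filter 1394, against 44. For the interaction they gave 846 and 703, against 57. Without single replicates, the counts ranged from 0 to 231 in *daf-2(rf)*, from 0 to 635 in the double mutant and from 0 to 130 for the interaction, and the fits with 0 calls had 1148 to 2017 genes at an unadjusted p under 0.05. The labels do not say whether a replicate number marks a shared batch. Deviations of same-numbered libraries correlated at -0.18, -0.25 and 0.04, and those of differently numbered ones at -0.28 to 0.31. So few libraries cannot settle whether the numbers pair them. With a replicate block, 15 genes were called in *daf-2(rf)*, 8 of them among the 16, 67 in the double mutant and 17 for the interaction. No called gene changed sign under any setting. Of 42 named genes not called, 8 changed sign under some setting: *sod-3*, with a log2 fold change of 0.71 that was -0.07 without D7 replicate 1, and *hil-1*, *tps-1*, *prdx-2*, *gpx-5*, *fat-1*, *acs-13* and *lst-1*, with -0.21 to 0.13. Depth limits genes near 0, and 3 libraries a day limit all of these values.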
